A study of Mus musculus with 49 samples.

Results

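Expression of integrated reporters (IRs) was measured in a pool of mouse embryonic stem (mES) cells as the abundance of each reporter's barcode in cDNA relative to genomic DNA (gDNA). In this pool, made by the TRIP method in which many reporters are integrated in parallel, barcoded reporters were inserted by the piggyBac transposase at sites across the genome, and each carried one of 7 promoters (CMV, cMyc, Hoxb1, Nanog, Oct4, p53 or PGK). Barcodes with 10 or more gDNA counts in both replicates were taken, which were 3818 of the 3842 barcodes in the table. The 24 left out had at most 9 counts in the replicate where they were lowest. The study mapped lesions left by Cas9 at such reporters in a cell line and in this pool, and expression in the pool was measured before Cas9 was introduced.

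The expression libraries came from the same pool of EBRTcH3 mES cells, not yet targeted by Cas9, which express the tetracycline-controlled transactivator from the ROSA26 locus and were grown with serum, leukemia inhibitory factor and inhibitors of MEK and GSK-3. There were 2 cDNA replicates, made from polyA RNA, and 2 gDNA replicates, the latter labelled with a pair of PCRs each and given as a single count per replicate. The methods describe biological replicates grown from aliquots of cells and technical ones from pools that were split and grown apart, and state duplicates for expression, but neither they nor the labels say which kind these libraries are, so p-values measure only the spread between these libraries, which may be technical. The pool was grown from a limited number of cells with many IRs each, so IRs of a founder cell share its descendants, and a barcode with fewer transcripts in every cell cannot be told apart from one that is transcribed in fewer of its cells. Mutation readouts come from cells of the pool targeted by Cas9 with sgRNA3, with sgRNA2, or with sgRNA2 and a single-stranded donor oligonucleotide (ssODN), with 12 libraries merged in each.

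A reporter that is inserted at random reads out the chromatin around it, since the same promoter can be active at one place and silenced at another. Such position effects are known from transgenes in many species. In mES cells, gene-dense regions of high GC content tend to replicate early and to be open, while gene-poor, AT-rich regions tend to lie at the nuclear lamina. Of the promoters, PGK comes from a housekeeping gene of glycolysis, p53 and cMyc from widely expressed regulators of growth and the response to damage, and CMV from a virus. Oct4 and Nanog come from genes of the pluripotency network, and Hoxb1 from a retinoic acid-inducible patterning gene of the embryo.

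The piggyBac transposase inserts at TTAA, and this motif lay at the mapped position of 96.7% of the 3811 IRs placed on the autosomes and the X chromosome of the authors' build, mm9. The target sites of 4 IRs are shown because they span the range of expression, with 13 reference bases on either side, plus strand of NCBIM37 (mm9), and the TTAA in capitals. Among IRs with 100 or more gDNA counts in both replicates, they are those with the highest and the lowest log2 expression for the Oct4 promoter, with the TTAA at chr15:50721621-50721624 and chr14:78465745-78465748, and for the PGK promoter, at chr3:34654342-34654345 and chr6:122032655-122032658.
Oct4, highest: gacaccaacactaTTAAtatcaaaggagcc
Oct4, lowest: atgaaatggacctTTAAaagaagactaaaa
PGK, highest: tctgtgcatttgaTTAAgaggctgagtctg
PGK, lowest: tattagctggaccTTAAagtaggaaggatt

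A longer stretch of 120 bases is shown for 2 intergenic IRs at opposite ends of expression whose surroundings differ in GC content, both chosen among IRs with 100 or more gDNA counts in both replicates. The highest Hoxb1 IR lay within chr8:91549284-91549403, where the 2 kb around the IR had a GC content of 53.6% and 83 CpGs, with 6 protein-coding gene starts within the surrounding 1 Mb. The lowest Nanog IR lay within chr16:82479850-82479969, where the same measures were 30.8% and 8, and no protein-coding gene started in that distance. Both are written on the plus strand of NCBIM37 with the target TTAA in capitals.
Hoxb1, highest: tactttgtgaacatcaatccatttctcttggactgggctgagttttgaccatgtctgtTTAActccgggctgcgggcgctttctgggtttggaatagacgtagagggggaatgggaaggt
Nanog, lowest: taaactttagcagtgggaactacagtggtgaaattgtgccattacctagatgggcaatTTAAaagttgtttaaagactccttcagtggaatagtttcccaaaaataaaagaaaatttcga

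Sequencing depth was 2648119 and 2704892 counts in the gDNA replicates and 1847222 and 1897359 counts in the cDNA replicates. A typical IR had 421 and 433 gDNA counts (medians), but only 41 and 43 cDNA counts. Transcripts were concentrated on few IRs: the 100 most abundant barcodes held 43.2% and 43.1% of cDNA counts, against 13.9% and 13.7% of gDNA counts. Log2 expression was computed after scaling the libraries to equal totals, as the log2 of the mean cDNA count plus 1 over the mean gDNA count plus 1. On this scale 0 means the same share of cDNA as of gDNA counts, the pool average, and most IRs lay below it.

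Expression differed between IRs by far more than between replicates. The median log2 expression was -2.62, the quartiles were -5.86 and 0.18, and 90% lay within a range of 11.82. The SD over IRs was 3.73 (3.79 and 3.75 in the 2 replicates), while the SD of the difference between replicates was 0.71. Log2 values of the replicates had a Pearson correlation of 0.98 across the 3818 IRs, which share the 4 libraries. The variance between replicates, for the mean of both, came to 0.916% of the variance over IRs. Deeply counted IRs had the smaller error, with an SD of the difference of 0.87 for the 564 IRs with fewer than 100 gDNA counts in a replicate and of 0.58 for the 845 IRs with the highest gDNA counts. The replicates were not copies of each other, as their counts differed by 6.47 times the variance of sampling alone for gDNA and 2.77 times for cDNA.

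**Figure D1:**
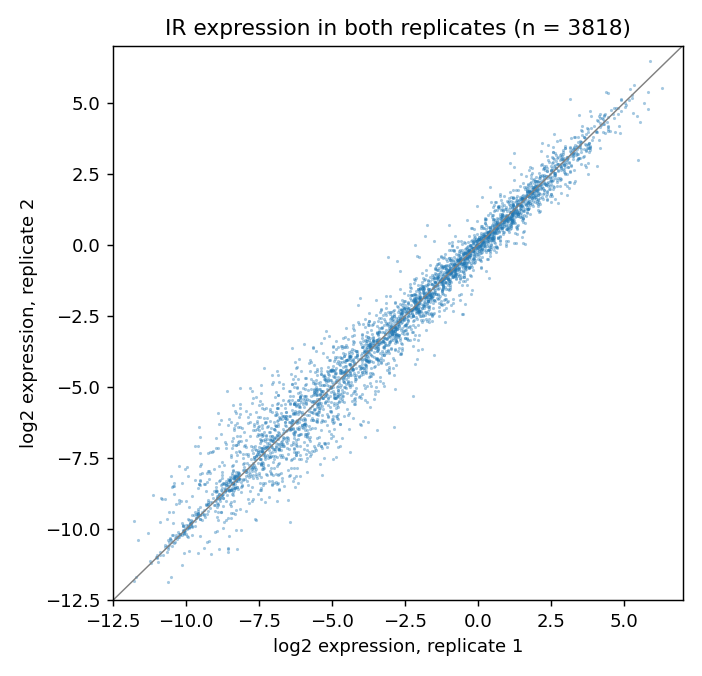
Log2 expression (cDNA over gDNA) of each of the 3818 IRs in replicate 1 (horizontal axis) and replicate 2 (vertical axis), with a line where both are equal. Points follow the line over the whole range and spread most at low values, where cDNA counts are few.

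PGK reporters were the most highly expressed and the least variable. Their median log2 expression was 1.85 (1.75 and 1.91 in the replicates, 168 IRs), and their SD was 1.88. Medians of 4 promoters lay close together, at -1.77 for p53 (471 IRs), -1.92 for CMV (498), -1.93 for Nanog (499) and -2.30 for cMyc (383). Hoxb1 and Oct4 reporters were lowest, with medians of -3.90 (1367 IRs) and -4.03 (432). The gaps between PGK, the middle 4 and the lowest 2 were larger than the differences between replicates, which were largest for cMyc (-2.19 and -2.46) and Oct4 (-3.83 and -4.08). cMyc was the lowest of the middle 4 in both replicates, though not with a minimum of 100 gDNA counts, where its median was -2.40 and that of Nanog -2.42. The order of p53, CMV and Nanog, and that of Hoxb1 and Oct4, was not resolved, since their medians differed by about as much as those of the replicates or less.

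**Figure D2:**
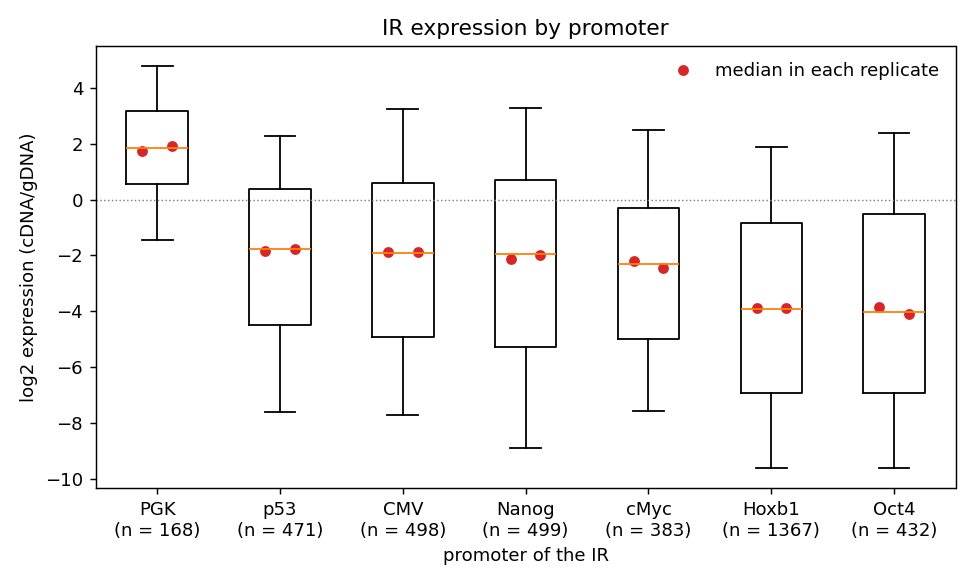
Log2 expression (vertical axis) of IRs by promoter, with n the number of IRs. Boxes show the quartiles and the median, whiskers the 5th and 95th percentiles, and points the median in each of the 2 replicates. The PGK median of 1.85 lies above the upper quartile of every other promoter, while the ranges overlap.

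Despite this, promoters accounted for a small part of the spread in this pool. That part depends on the mix of promoters, and PGK, the one farthest from the others, had only 168 of 3818 IRs. The share of the variance of log2 expression that lay between promoters was 11.4% (10.9% and 11.6% in the replicates). Every promoter other than PGK had an SD of 3.14 to 3.80, and for each of these 6 the range from the 5th to the 95th percentile was 9.86 or more, against 6.23 for PGK. The promoters differed less at their upper ends than at their medians. The 95th percentile was 4.78 for PGK, 3.29 for Nanog, 3.24 for CMV and 1.89 for Hoxb1, whereas the 5th percentile was -1.45 for PGK, -7.60 for p53 and -9.61 for Hoxb1.

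The single highest IRs were closer to each other across promoters than the medians were. A maximum also depends on the number of IRs, which ran from 168 for PGK to 1367 for Hoxb1. Over all 3818 IRs the maxima were 6.15 for Hoxb1, 5.87 for p53, 5.59 for Nanog, 5.47 for PGK, 5.23 for Oct4 and 5.14 for cMyc. Among mapped IRs with at least 100 gDNA counts in both replicates, the highest had a log2 expression of 5.59 for Nanog, 5.33 for PGK, 5.23 for both Hoxb1 and Oct4, 5.14 for cMyc and 4.24 for p53. Several lay close to the start of a gene. The highest Nanog IR (barcode AGCGCGTCTGTTCTATTA, chromosome 2, position 162881774, plus strand) was in an intron of Mybl2, a regulator of the cell cycle, 1.35 kb from its transcription start site (TSS). It had 729 and 930 gDNA counts and 28493 and 27465 cDNA counts.

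The highest Oct4 IR (AATTTCAGGGTATCTCTA, chromosome 15, position 50721622, minus strand) was 35 bp from a TSS of Trps1, which encodes a zinc finger transcription factor, with 176 and 347 gDNA and 6985 and 6775 cDNA counts. The highest p53 IR (TGAGAAGACGATTGCAAT, chromosome 1, position 15796291, minus strand) was in an intron of Terf1, a telomere-binding protein gene, 546 bp from its TSS. Its counts were 166 and 237 in gDNA and 2653 and 2689 in cDNA. The other 3 were intergenic and not at the start of a protein-coding gene. The highest Hoxb1 IR (TCACCCGACCGCTTGGTT, chromosome 8, position 91549344, plus strand) was intergenic, 18.7 kb from the TSS of Sall1, a developmental zinc finger gene, with 359 and 441 gDNA and 9795 and 11251 cDNA counts. The highest PGK IR (CACTATGCCGCGTTCAGA, chromosome 3, position 34654343, minus strand) was intergenic and 90.2 kb from the TSS of Sox2ot, the noncoding transcript that overlaps Sox2, with 194 and 173 gDNA and 4957 and 5482 cDNA counts. The highest cMyc IR (AAATTGTGATTCTACTGT, chromosome 4, position 55483075, minus strand) was intergenic, 1.04 kb from an annotated small nucleolar RNA, with 157 and 145 gDNA and 3971 and 3525 cDNA counts. It had a mapping quality of 18.9 that is below that of most IRs.

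At the other end, with the same minimum of 100 gDNA counts, the lowest IR of 5 promoters had no cDNA count in either replicate. Among IRs without cDNA counts the lowest is the one with most gDNA counts, through the pseudocount, so this order is one of depth. For Hoxb1 it lay in an intron of Sorcs3, a neuronal sorting receptor gene (AAAATTACGTTTAATTGT, chromosome 19, position 48788543, plus strand), 473 kb from the nearest annotated TSS, with 4047 and 4311 gDNA counts. Taking the 3 counts over both replicates that a count of 0 allows, its cDNA share relative to its gDNA share was at least 1949-fold lower than the pool average. For CMV it was an intergenic IR 84.9 kb from the TSS of Prox1, a homeobox gene (CATACTATTCCAGCCTGG, chromosome 1, position 192079489, minus strand), with 2725 and 2811 gDNA counts, and was at least 1291-fold lower. The mapping quality of this CMV IR, 24.9, was below that of most IRs. For Nanog it was the intergenic IR of chromosome 16 printed above (AGCATTGTTAAATCGTAC, position 82479910, plus strand), with 2811 and 2668 gDNA counts, and was at least 1278-fold lower. The lowest Oct4 IR (TGCTCTTCAAAAAAAGTC, chromosome 14, position 78465747, plus strand) had 2206 and 2258 gDNA counts and was at least 1041-fold lower, and the lowest cMyc IR (CAACACGTCATTCGAGTC, chromosome 12, position 5528291, minus strand) had 1746 and 1537 and was at least 766-fold lower. Both were intergenic.

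For p53, 10 IRs had no cDNA count, but the lowest value belonged to a more deeply counted IR (AGAAACGTTAGACGACTT, chromosome 4, position 61679831, minus strand). It was intergenic, 3.94 kb from a pseudogene of the major urinary proteins, which are made in the liver. It had 2067 and 1708 gDNA counts and 2 and 1 cDNA counts, a log2 ratio of shares of -9.78 with an exact 95% Poisson interval from -12.06 to -8.23. The lowest PGK IR with 100 or more gDNA counts in both replicates (CCCTAGCAGAGTTGCGCA, chromosome 6, position 122032657, plus strand) had 88 and 82 cDNA counts for 563 and 456 gDNA counts, a log2 expression of -2.06, while the minimum over all 168 PGK IRs was -4.21. It lay in an intron of Mug2, a protease inhibitor gene of the liver, with a low mapping quality of 11.1. Such limits and intervals cover counting error only, since reads without molecular identifiers are not independent molecules. The IR with most gDNA counts of all, 6839 and 6429, was a p53 reporter (TGGGCTTGGCTAAGGGAT, chromosome 2, position 75858802, plus strand) in an intron of the phosphodiesterase gene Pde11a, with a log2 expression of -0.69 from 2768 and 2983 cDNA counts.

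No cDNA was counted in either replicate for 426 IRs, or 11.2%, with a median of 355.25 gDNA counts against 427.5 for all IRs. This share was 19.9% for Oct4 and 17.7% for Hoxb1, 9.02% for Nanog, 5.42% for CMV, 4.18% for cMyc and 2.12% for p53. It was 0 of 168 for PGK. Within single replicates the share was higher, at 7.05% and 8.88% for cMyc and 4.25% and 5.10% for p53.

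A count test of cDNA against gDNA was run for every barcode with edgeR's quasi-likelihood fit and Benjamini-Hochberg adjustment at 0.05. Against the average of the pool, 888 of 3818 IRs were called above (23.3%) and 2644 below (69.3%). PGK stood out by direction, with 130 of 168 IRs called above, or 77.4%, whereas 15.9% of Hoxb1 and 16.9% of Oct4 IRs were called above. This split depends on where the average is set. With TMM factors, which move the median of all IRs up by 1.25 on the log2 scale, 1299 were above and 2187 below, and with the size factors of DESeq2, which move it by 1.53, 1376 were above and 2060 below. The same test was therefore made against the median of the IRs with the same promoter, a comparison chosen after seeing the data, in which this choice cancels. Of 3818 IRs, 1683 were called above the median of their promoter (44.1%) and 1698 below (44.5%), and 437 were called in neither direction. A nearly even split follows from the use of the median of these same IRs, also within each promoter. Each promoter had 41.0% to 46.2% of its IRs called above and 42.4% to 47.5% below. The same calls are used below to describe places in the genome, where they can be read against these shares.

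Expression fell steadily with distance from the nearest annotated TSS. In what follows it is given as promoter-centred log2 expression, the log2 expression of an IR minus the median of its promoter. IRs up to 1 kb from a TSS had a median of 2.35 (380 IRs), those at 5 to 20 kb 0.59 (1084), those at 50 to 100 kb -1.84 (455) and those over 200 kb away -4.07 (210). Each step exceeded the difference between replicates, which was largest at 50 to 100 kb (-2.01 and -1.70). Of the IRs up to 1 kb away, 72.6% were called above the median of their promoter and 17.1% below, and of those over 200 kb away 9.05% were above and 84.3% below. The difference between IRs within 5 kb and IRs over 50 kb from a TSS was 4.62 on the log2 scale (4.74 and 4.54 in the replicates). The share without any cDNA count rose over the same classes from 2.11% to 35.2%.

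Base composition and gene density gave gradients of similar size. IRs were put into 5 groups of nearly equal size by each measure. In the group with the lowest GC content over 2 kb (28.3% to 39.3%) the median was -2.85, and in the highest (47.7% to 63.0%) it was 2.08. By the number of protein-coding gene starts within 1 Mb around the IR, the median rose from -3.28 in the sparsest group (0 to 3 genes) to 2.35 in the densest (17 to 72 genes), where 70.1% of IRs were called above the median of their promoter. IRs with 10 or fewer CpGs in 2 kb had a median of -2.71, and those with over 30 CpGs 1.95. These measures are not independent of each other, and their separate parts can be compared only at fixed values of the others. At 5 to 20 kb from a TSS, IRs in the 2 sparsest groups had a median of -1.10 (290 IRs) and those in the 2 densest 1.42 (551). At 20 to 50 kb the values were -2.07 (339) and 0.41 (252), so the difference by gene density remained at both distances.

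**Figure D3:**
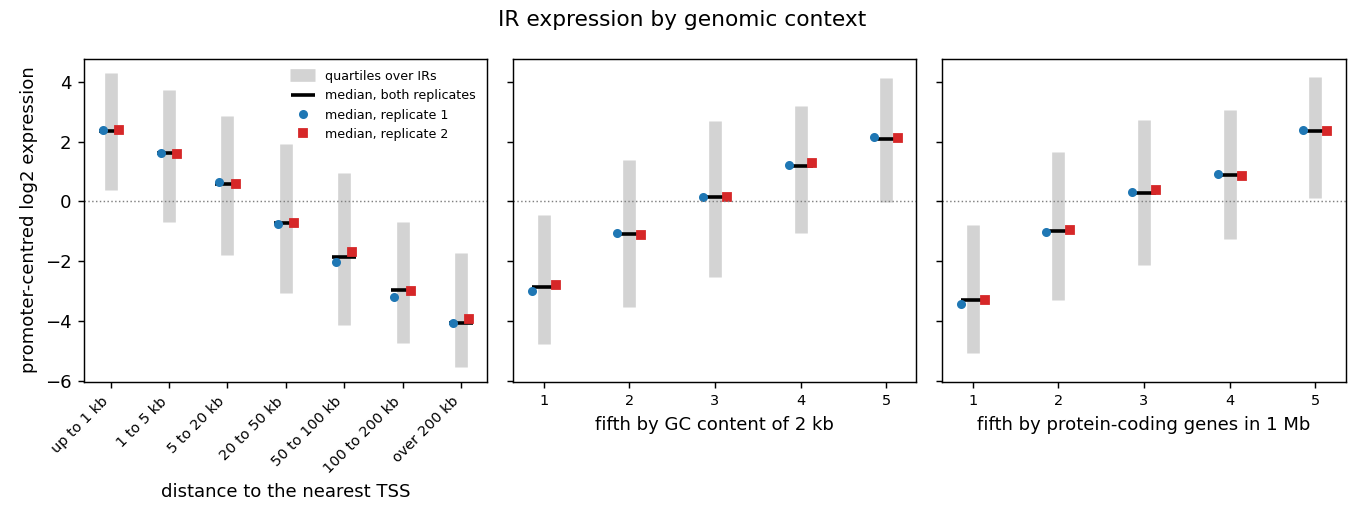
Promoter-centred log2 expression (vertical axis) of the 3811 IRs by distance to the nearest TSS (left), by 5 groups of GC content in 2 kb (middle) and by 5 groups of the number of protein-coding gene starts in 1 Mb (right). Grey bars span the quartiles over IRs, black lines are medians of both replicates, and points are the medians of each replicate. The median falls from 2.35 to -4.07 with distance and rises with GC content and gene density.

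IRs inside annotated genes had a median of 0.53 (1870 IRs) and intergenic IRs one of -0.81 (1941), a difference of 1.34 (1.32 and 1.35 in the replicates), which was 0.80 with a pseudocount of 10. This difference was not seen at equal distance close to a TSS. At 1 to 5 kb, IRs in genes had a median of 1.44 (384 IRs) and intergenic ones 1.85 (256), and at 5 to 20 kb they had 0.50 (596) and 0.72 (488). Farther away the order turned, with -0.14 in genes (360) and -1.21 outside (399) at 20 to 50 kb, -1.15 in genes (177) and -2.29 outside (278) at 50 to 100 kb, and -1.91 (68) and -3.31 (215) at 100 to 200 kb. Within genes, most IRs were in introns (1731, median 0.50), while 80 lay in UTRs (0.55) and 59 in other exons (0.99). IRs mapped to the strand of their host gene had a median of 0.84 (913 IRs) and those on the opposite strand 0.17 (957). How the deposited strand relates to the direction of the reporter's own transcription is not stated in the sources used here, so no orientation is read from it.

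The rise in expression toward genes differed in size between promoters. From over 50 kb to within 5 kb of a TSS, the median log2 expression rose by 5.45 for CMV, 5.39 for Hoxb1, 4.83 for Oct4, 4.78 for p53 and 4.44 for Nanog, but by 2.30 for cMyc and 2.25 for PGK. From the sparsest to the densest group of gene density the rise was 4.14 to 6.92 for the other promoters and 1.94 for PGK, which went from 0.44 (26 IRs) to 2.39 (42 IRs). Both rises were seen in each replicate for every promoter, and the replicates were farthest apart for CMV by gene density (7.33 and 6.72). The differences in rise between promoters were not tested. Promoters were farther apart in gene-poor places and far from a TSS. The highest and lowest promoter medians, those of PGK and Oct4, differed by 7.75 in the sparsest group (7.76 and 7.68 in the replicates). In the densest group PGK and Hoxb1, the highest and the lowest there, differed by 3.59 (3.56 and 3.60). Without PGK, the gap between the outer promoters was 2.63 in the sparsest and 2.27 in the densest group. By distance to a TSS the gap was 4.93 within 5 kb and 7.51 over 50 kb away, and without PGK 2.38 and 3.54. The difference between genic and intergenic IRs also varied in size. It was 2.28 for Hoxb1, 2.01 for Oct4, 1.52 for p53, 1.30 for CMV and 0.28 for Nanog. For PGK it was -0.06 and for cMyc -0.12, and for these 2 promoters the sign differed between replicates. These values were not taken at equal distance to a TSS, and how they differ between promoters was not tested.

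In a linear description over the 3811 IRs, promoter accounted for 11.5% of the variance of log2 expression. The distance to a TSS, GC content and gene density accounted for 25.5% together, and promoter with all of them for 36.1% (35.8% and 35.7% in the replicates). Promoter with chromosome alone reached 13.2%. Most of the variance between IRs thus lay outside these measures and was larger than that between replicates.

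Chromosomes differed in their median, though by less than the IRs within them. The highest median promoter-centred expression was that of chromosome 11, at 1.65 (1.68 and 1.46 in the replicates, 255 IRs), with 58.0% of IRs called above the median of their promoter. It was followed by chromosomes 17 (0.93), 5 (0.83), 15 (0.72) and 4 (0.67), but which chromosomes came next depended on the settings. With a minimum of 100 gDNA counts chromosome 15 was at 0.18, chromosome 4 at 0.30 and chromosome 19 at 0.62, and with a pseudocount of 10 chromosome 17 was at 0.40. Chromosome X was lowest at -1.78 (-1.78 and -1.77, 84 IRs), with 32.1% of IRs called above and 59.5% below, and it was lowest under each setting, from -2.17 with a pseudocount of 0.5 to -0.97 with one of 10. Next were chromosomes 13 (-1.09), 12 (-0.83), 10 (-0.73) and 1 (-0.60), but the order of chromosomes 13 and 12 also depended on the settings. With a minimum of 100 gDNA counts chromosome 13 was at -0.77 and chromosome 12 lay below it. With a pseudocount of 10 chromosome 13 was at -0.60 and chromosome 12 at -0.63. Chromosomes 6 (-0.49), 18 (-0.48), 2 (-0.15), 3 (-0.13) and 16 (-0.13) were below 0, while chromosomes 7 (0.30), 19 (0.24), 9 (0.12), 14 (0.07) and 8 (0.03) were above it. The sign was not stable for chromosomes 8 (-0.08 in replicate 1), 9 (-0.0085 in replicate 1) and 2 (0.0052 with a minimum of 100 gDNA counts). The largest difference between replicates was 0.32, which leaves out the spread over IRs within a chromosome, and no order of chromosomes was tested. The quartiles of chromosome 11 were -1.42 and 3.52 and those of chromosome X -4.08 and 1.84, so the chromosomes overlapped widely.

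**Figure D4:**
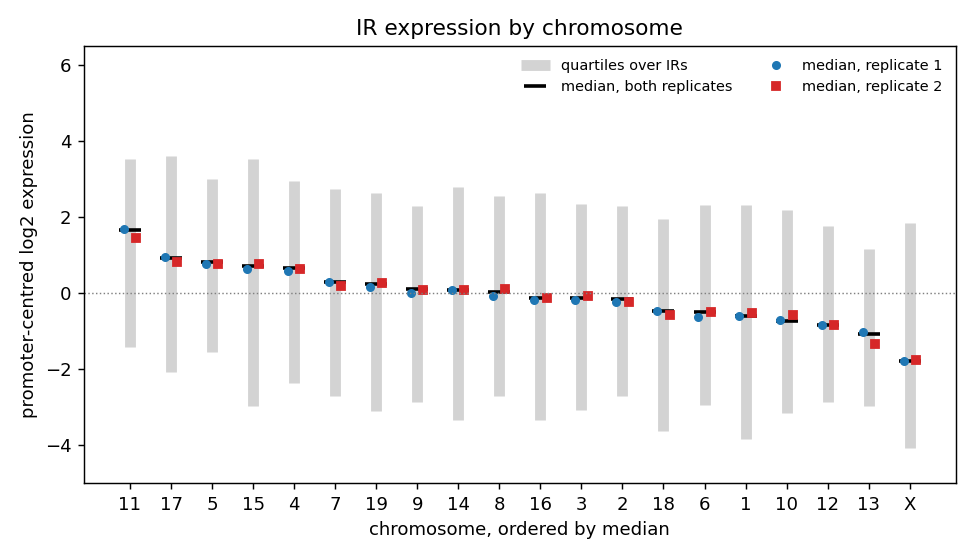
Promoter-centred log2 expression (vertical axis) of IRs on each chromosome, ordered by median. Grey bars span the quartiles over IRs, black lines are medians of both replicates, and points are the medians of each replicate. Medians run from 1.65 on chromosome 11 to -1.78 on chromosome X, within wide and overlapping quartiles.

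The order of chromosomes followed their composition. Across the 20 chromosomes, the median expression had a Pearson correlation of 0.85 with the median GC content around the IRs and of 0.71 with the median gene density, as a description of points that share libraries and annotation. IRs of chromosome 11 had a median of 12 protein-coding gene starts within 1 Mb, and those of chromosome X 5. After subtraction of the linear fit on distance to a TSS, GC content and gene density, the medians were 0.38 for chromosome 11 and -0.39 for chromosome X, which were then neither the highest nor the lowest. The outer values were 0.49 for chromosome 5 and -0.47 for chromosome 1. The low value on chromosome X was not shared by all promoters. The median was -3.04 for p53 (10 IRs, -2.37 and -4.46 in the replicates), -2.53 for Hoxb1 (32) and -2.37 for Nanog (13). It was -1.69 for Oct4 (8) and -1.25 for CMV (8), but -0.27 for PGK (5). For cMyc (8) it was 0.33, with 0.035 and 0.45 in the replicates. These numbers of IRs are small. On chromosome 11 the median was 2.95 for p53 (30 IRs), 2.49 for CMV (41) and 1.62 for Hoxb1 (91). It was 0.56 for cMyc (28) and 0.12 for Nanog (24), with 0.28 and 0.44 in the replicates for Nanog. For PGK (10) it was -0.12 (-0.08 and -0.12). For Oct4 (31) it was -0.01, but 0.25 and 0.02 in the replicates, so its sign was not resolved.

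Neighbouring IRs were expressed at similar levels even when they carried different promoters. Pairs at the same position, or with barcodes differing at 2 or fewer bases, were left out, since they may be a single integration. The median absolute difference in promoter-centred expression was 1.40 for 44 pairs at 1 bp to 1 kb (1.19 and 1.59 in the replicates) and 1.69 for 126 pairs at 1 to 10 kb (1.83 and 1.62). It was 2.30 for 794 pairs at 10 to 100 kb and 2.94 for 6150 pairs at 100 kb to 1 Mb. At 1 to 10 Mb it was 3.36, and pairs on different chromosomes differed by 3.51 (3.58 and 3.53). The value at 1 to 10 kb minus that on different chromosomes was -1.83, and -1.21 with a pseudocount of 10. Among pairs at 1 to 10 kb with both IRs called against the median of their promoter, 100 of 107 were called in the same direction, or 93.5%, while on different chromosomes 49.9% were. At 10 to 100 kb this share was 74.3%, at 100 kb to 1 Mb 58.7% and at 1 to 10 Mb 52.8%. The correlation across pairs was 0.54 at 1 bp to 1 kb and 0.66 at 1 to 10 kb, and then fell to 0.44, 0.18 and 0.06, with pairs that share IRs and libraries and are not independent.

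**Figure D5:**
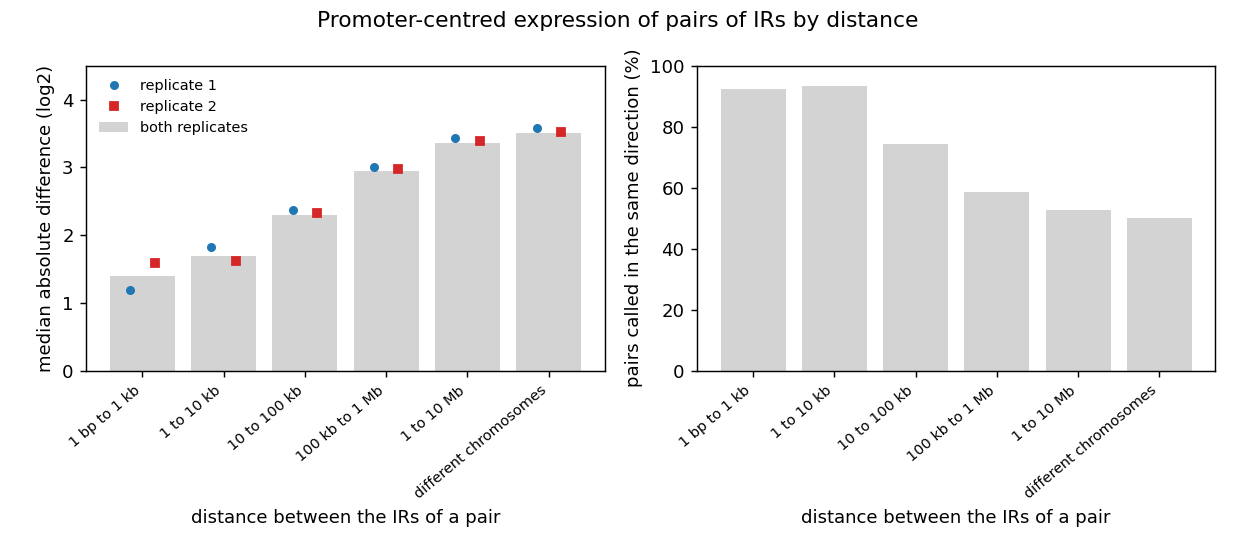
Pairs of IRs by their distance (horizontal axis). The left panel shows the median absolute difference in promoter-centred log2 expression, with bars for both replicates and points for each, and the right panel the percentage of pairs called in the same direction among pairs with both IRs called against the median of their promoter. The difference grows from 1.40 to 3.51 and the percentage falls to 49.9% for pairs on different chromosomes.

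Neighbours with different promoters were also alike. At 1 to 10 kb, 96 pairs with different promoters had a median difference of 1.69 and a correlation of 0.66, and 30 pairs with the same promoter 1.43 and 0.67. Of all pairs at 1 to 10 kb, 14 of 126 still differed by more than 4 on the log2 scale, or 11.1%, against 44.2% of pairs on different chromosomes. At 1 bp to 1 kb, 36 pairs with different promoters had a median difference of 1.44 but a correlation of only 0.25. An Oct4 and a Hoxb1 reporter 100 bp apart in an intron of Grik3, a glutamate receptor gene, were both among the highly expressed IRs. The Hoxb1 IR (CATAACACATTATCTAAC, chromosome 4, position 125287268) had a log2 expression of 2.82 and the Oct4 IR (ACAGTTAATTCCAGAGTC, position 125287368) 3.35, far above the medians of their promoters. Between them the promoter-centred values differed by 0.66. A pair of Nanog reporters 60 bp apart (TACATACTCAGCCCCAA and AGGTCGTTTACAATGACC, chromosome 6, positions 100334516 and 100334576), 97.1 kb from the TSS of the Polycomb gene Rybp, had log2 values of 2.70 and 2.81.

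In an intron of Ric8b, which encodes a chaperone of G proteins, a Nanog (CTGCAATCATCAATGCGC, chromosome 10, position 84427971) and a CMV reporter (TCGATTGCACCACATTAG, position 84428019) 48 bp apart had log2 values of -1.93 and -1.18. Other close pairs differed more. A CMV and a Nanog reporter 38 bp apart on chromosome 8 (CACCATAATATGGATATG, position 86301002, and TACTAGTGGTGCGGATGC, position 86301040) had promoter-centred values of 3.70 and 1.05. A Hoxb1 and a PGK reporter 39 bp apart on chromosome 15 (CCCCCGAGTTCTGACTGG, position 74917436, and CTGAACTACTGCGTTTTG, position 74917475), 24.7 kb and 24.6 kb from the TSS of Ly6c2, had log2 values of 1.92 and 3.31. These were closer to each other than the medians of their promoters are, so that the promoter-centred values differed by 4.37, and the PGK reporter had a mapping quality of 16.0.

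The remaining pair of the 6 closest, a CMV and a Hoxb1 reporter 46 bp apart on chromosome 18, differed by 1.70 in promoter-centred expression, with mapping qualities of 20.2 and 30.3. Across the 6 pairs the members lay above the median of their promoter, except for the Nanog reporter in Ric8b, which lay at it.

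Groups of endogenous genes around the IRs covered a similar range. IRs were assigned to the gene they lie in, or otherwise to the gene with the nearest TSS within 100 kb, and for all 3811 IRs the median promoter-centred expression is 0.00 with 44.1% called above. IRs at genes of the pluripotency network had a median of 2.99, with 7 of 8 called above and 1 below. The highest was an Oct4 reporter 11.9 kb from Klf2, a factor that sustains naive pluripotency, at 9.03 (8.89 and 9.02 in the replicates), and the lowest a Nanog reporter in an intron of Jarid2, a partner of Polycomb, at -3.43 (-3.30 in both). IRs at symbols of ribosomal proteins, translation factors and proteasome subunits had a median of 1.79, with 17 of 29 called above and 9 below. This list takes in processed pseudogenes of these families. Its highest and lowest IRs were Hoxb1 reporters near the pseudogenes Rpl30-ps6, at 8.23, and Rps24-ps2, which had no cDNA count and was at least 838-fold lower than the pool average. Without pseudogene symbols, a choice made after the values were seen, the median was 2.62 for 19 IRs.

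Other lists lay lower. IRs at sensory receptor genes, which act mainly in sensory cells of the nose and tongue, had a median of -2.42, with 4 of 25 called above and 17 below. The highest was a Nanog reporter near the pseudogene Olfr237-ps1, at 5.58, and the lowest a CMV reporter near Olfr747, which had no cDNA count and was at least 157-fold lower than the pool average. The mapping qualities of these reporters, 24.8 and 20.75, were below those of most IRs. IRs at neuronal adhesion and synapse genes, which are often very long, had a median of -2.53, with 9 of 63 called above and 45 below. Their highest was the Oct4 reporter in Grik3 described above, at 7.38, and their lowest a Nanog reporter without cDNA counts in an intron of Ctnna3, an alpha-catenin gene, at least 257-fold lower than the pool average. IRs at developmental transcription factor families had a median of -0.20 (0.24 and -0.17 in the replicates), with 7 of 20 called above and 8 below, near the shares of all IRs. The highest of these was a Nanog reporter 7.18 kb from Sox21, at 4.41. With IRs without cDNA counts set at the limit for 0 counts, the medians were -2.09 for sensory receptors and -2.41 for neuronal genes, and the other lists had the medians given above. The lists hold between 8 IRs at 6 genes (pluripotency) and 63 IRs at 46 genes (neuronal), so some IRs lie at the same gene. Their IRs also share the libraries with all others.

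IRs that were more abundant in the pool had lower expression. IRs were put into 4 groups of nearly equal size. In the group with the fewest gDNA counts (median 101) the median promoter-centred expression was 0.99, and in the group with the most (median 1502.5) it was -0.75, with a Pearson correlation of -0.22 across 3818 IRs. The gDNA count is also the denominator of expression, and its part in this relation was not tested. The share of mutated reads after Cas9 had correlations near 0 with expression, and its medians did not rise steadily. Among 1866 IRs with at least 30 reads with sgRNA3, the median share of mutated reads was 70.7% in the lowest of 4 groups of promoter-centred expression, 68.7% and 73.2% in the middle groups and 75.6% in the highest, and the correlation was 0.05. By class, the median share of reads with insertions rose in the same order (22.2%, 23.5%, 26.4% and 28.8%), while that with deletions had no order (45.5%, 39.6%, 42.5% and 40.5%). The rise in insertions was not seen with sgRNA2 (1.45%, 0%, 1.25% and 1.19%), nor at each step with sgRNA2 and ssODN (1.92%, 0.915%, 1.65% and 2.44%). With sgRNA2 without the donor oligonucleotide, the medians in the same order were 19.8%, 9.64%, 16.7% and 21.2% over 1591 IRs, with a correlation of 0.02. With sgRNA2 and the oligonucleotide they were 29.4%, 22.5%, 27.5% and 35.2% over 1761 IRs, with a correlation of 0.05. Libraries of these assays are merged, so these values have no replicate spread.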

How the data were processed

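The authors amplified barcodes from cDNA and gDNA of the pool, sequenced and filtered them, and deposited the counts of each barcode per replicate without normalization. They mapped IRs by inverse PCR and alignment to mm9 (Bowtie2 2.0 is named in the submitters' notes), and deposited a position and a mapping quality score. Deposited read counts of mutated barcodes were merged over libraries. Mapping was deposited for both ends of a reporter, and the end that the pool tables use was taken.

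Expression was the log2 ratio of scaled mean counts plus 1, for IRs with 10 or more gDNA counts in both replicates. Promoters in the table were the same as in the pool tables for all shared barcodes. Genes and TSSs came from GENCODE vM1, GC content from 2 kb of NCBIM37, which is mm9. Counts were tested with edgeR 4.0.16 in R 4.3.3 (quasi-likelihood, column totals as library sizes, molecule as the only term), with DESeq2 1.42.0 as an alternative. The edgeR fit was first run on simulated counts in which few barcodes changed, unlike in the pool. Promoter, chromosome, context and neighbour values are descriptions without a test.

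Named IRs are the highest and lowest of each promoter and the 6 closest pairs with 100 or more gDNA counts in both replicates, the IR with most gDNA counts, and the extremes of each gene list; 2 of them are not reported here. Alternatives covered scaling, minimum counts, pseudocount, pairing, libraries left out and barcodes per position. Members and lists were chosen with earlier results of these data known.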

Additional observations from a re-analysis of the deposited data

How the results depend on the processing

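Of the summary values, only the differences for neighbours, genes and TSS distance could change sign, and each kept it under the alternatives tried. IRs called below the pool average outnumbered those above it in each alternative for these calls. Of the alternative values for these summaries, 68 lay within the limit set for them and 28 moved further. The limit was the spread between replicates, or 1.5 times the value for the total of calls in both directions (3532 against the pool average). Such a total could not rise by 1.5 times, as most of the 3818 IRs were called, so it says little about stability. The totals hide the split: with DESeq2 1376 IRs were above the pool average in place of 888, more than 1.5 times as many. Among the values of single promoters and chromosomes, 144 lay within that spread, 114 moved further and 5 changed sign. The alternatives with a mapping quality of 30 or more, and those for calls against the promoter median, were chosen after seeing the data.

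Below, the ranges are the highest minus the lowest median of a promoter or chromosome, and the neighbour value is the median difference of pairs at 1 to 10 kb minus that of pairs on different chromosomes (-1.83). With a pseudocount of 10, which pulls low counts together, the SD over IRs was 2.85, the promoter range 4.75, the chromosome range 2.09, the neighbour value -1.21, the genic difference 0.80 and the TSS difference 3.13. Hoxb1 and Oct4 changed order (-3.01 and -2.97), and chromosome 9 fell to -0.21. With a pseudocount of 0.5 the SD was 3.95, the chromosome range 3.83, the neighbour value -2.01, the genic difference 1.38 and the TSS difference 4.93.

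A minimum of 100 gDNA counts gave a promoter share of variance of 10.1%, a chromosome range of 3.61, a neighbour value of -1.96, a genic difference of 1.53 and 10.7% of IRs without cDNA counts, with chromosome 2 at 0.0052 and chromosome 8 at -0.14. A minimum of 30 gave a genic difference of 1.38, and a minimum of 1 gave 11.3% of IRs without cDNA counts. Requiring a mapping quality of 30 gave a neighbour value of -1.95 and a genic difference of 1.24. Pairs of the same promoter gave -2.17, protein-coding genes alone a genic difference of 1.24, and limits of 2 kb and 100 kb a TSS difference of 5.72. Beyond the construction of each alternative, the cause of these shifts was not tested.

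With replicates paired by number as a block, the SD was 3.76, and edgeR called 863 IRs above and 2626 below the pool average. No pairing by number was visible, as cDNA and gDNA deviations of a number had a correlation of 0.0060 across 3818 IRs. This cannot tell whether libraries of a number came from the same culture, since deviations made in separate library steps would not correlate.

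Leaving out a replicate gave an SD of 3.75 to 3.79, a chromosome range of 3.23 to 3.47 and 14.7% to 14.9% of IRs without cDNA counts. Chromosome 8 lay at -0.084 to 0.105 and chromosome 9 at -0.0085 to 0.080, so neither has a resolved sign. Leaving out a single library left 1 sample in its group, assumed to vary like the other, and edgeR then called 839 to 873 IRs above and 2586 to 2620 below the pool average. Depth limits the lowest values: an IR with few gDNA counts cannot be told to be far below the pool average.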
